A study of Homo sapiens with 14 samples.

Results

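Replication-dependent histone genes were examined in polyA-selected RNA of A375, an established human melanoma line, in which the study had altered Z18 (ZC3H18), a zinc-finger protein that binds the nuclear cap-binding and RNA surveillance machinery. The members were all gene symbols of the deposited tables that follow the pattern of the clustered histone genes (H1 with a hyphen and a number, H2AC, H2BC, H3C or H4C with a number, or the older HIST1H to HIST4H names), which gave 70 of 28307 symbols. They comprised 10 H1, 16 H2A, 17 H2B, 13 H3 and 14 H4 genes, of which 55 lay in the large cluster on chromosome 6, 11 on chromosome 1, 2 on chromosome 3 and 1 each on chromosomes 12 and 22 (hg38). Bulk CRISPR populations (n = 3) had received Cas9 with a guide RNA against Z18, and bulk controls (n = 3) the Cas9 vector with no guide. The trunc/+ clones (n = 3) carried 1 truncating Z18 allele, made by homology-directed repair in 1 clone and present as another truncating change in the other 2, the -/+ clones (n = 3) carried 1 loss-of-function allele, and the WT clones (n = 2) came from cells given the vector without a guide. Controls and edited cells alike went through transient transfection followed by drug selection. Each clone was then grown out by limiting dilution and gave 1 library, so that a clone group varies by clone as well as by genotype. The bulk populations had no such outgrowth, so the time since transfection and drug selection also differs between bulk populations and clones. The bulk CRISPR populations, labelled as knockout, were not cloned and can hold edited and unedited cells. The p-values measure the spread between these libraries, which in the bulk groups may be technical in part.

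Replication-dependent histone genes supply the nucleosome core proteins H2A, H2B, H3 and H4 and the linker histone H1 while DNA is copied, and their RNA is abundant in S phase. Unlike other mRNAs, their transcripts are normally not polyadenylated: the RNA is cut just after a short stem-loop that is held by the stem-loop binding protein SLBP, with the help of the U7 small nuclear RNP. RNA from these genes that passes a polyA selection therefore includes transcripts that were ended at a downstream polyadenylation signal, as well as whatever the selection carries over. The cap-binding complex, with which Z18 associates, takes part in the 3′ end processing of histone mRNA. The naming rule also takes in genes of another kind: H1-10 is a replication-independent linker histone gene whose mRNA is polyadenylated, and H1-7 and H1-8 are germline linker histones.

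The stem-loop was looked for on the sense strand of hg38 in the 200 bases before to 100 bases after each annotated 3′ end of the deposited tables. It was present in 59 of the 70 members (84.3%) and in 7 of 28236 other genes (0.0248%). Read from the stop codon of the GENCODE coding sequence instead, a stem-loop lay within 200 bases in 66 members, and those without one included H1-10, H1-7 and H1-8. The 66 genes used 10 versions of the 16-base element, of which 4 accounted for 60 genes. A member of each of these is shown here, chosen for its level or as the example of its version, with the stem-loop in capitals, 5′ to 3′ on the gene's strand. H2AC6 has the version shared by 38 genes of the H1, H2A, H2B and H3 families (chr6:26124662-26124691, plus strand), H2BC12 the one with an A in the last loop position shared by 9 genes (chr6:27146359-27146388, minus strand), H4C8 the main H4 version shared by 9 genes (chr6:26285124-26285153, minus strand), and H4C15 the version of 4 other H4 genes (chr1:149860762-149860791, minus strand).
H2AC6: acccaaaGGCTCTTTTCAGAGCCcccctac
H2BC12: ccccaaaGGCTCTTTTAAGAGCCacttaaa
H4C8: aaccaaaGGCCCTTTTCAGGGCCgcccact
H4C15: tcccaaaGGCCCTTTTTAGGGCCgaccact

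The polyadenylation hexamers AATAAA and ATTAAA were found in the last 50 annotated bases of 15.7% of the members, against 67% of the other genes. In 5 members, however, a hexamer followed the stem-loop directly, starting 13 or 14 bases after it. These were H1-2 (chr6:26055720-26055749, minus strand), H2AC18 (chr1:149842199-149842228, minus strand) with its duplicate H2AC19, which holds the same letters, H2BC5 (chr6:26158597-26158626, plus strand) and H2AC4 (chr6:26033074-26033103, minus strand). Their sequences are shown from the second arm of the stem onward, with the arm and the hexamer in capitals.
H1-2: AGAGCCaccactgatctcAATAAAagagct
H2AC18: AGAGCCacccacgttttcaAATAAAagagt
H2BC5: AGAGCCacgcatgttttcAATAAAtgagtt
H2AC4: AGAGCCacctacgacttccATTAAAtgagc

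The levels of the members in polyA RNA were very unequal. Levels are given in FPKM (fragments per kilobase of gene, scaled to the mapped fragments of the library), a scale that allows genes of different length to be compared. Over the 14 libraries, 7 members were listed at 0 throughout (H2AC1, H2BC1, H3C11, H4C7, H4C13, H1-7 and H1-8), 22 stayed below 1 FPKM in every library, these 7 included, and 13 reached 10 FPKM in any library. Among the highest means over all libraries were those of H1-10 (81.8 FPKM), H2AC18 (79.1), H2BC12 (77.0), H1-2 (71.2), H4C15 (26.0), H2AC6 (18.6), H2AC19 (13.6) and H2BC5 (10.0). H3 genes were lowest, with H3C10 at 2.62 FPKM as the highest of them. H2AC18, H2AC19, H2BC12, H1-2, H2AC6, H4C15 and its copy H4C14 were set against the 66 members with a stem-loop. Together they held 80.8% to 87.0% of the summed FPKM of these 66 in a bulk library and 55.2% to 78.1% in a clone.

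Most of the highest members with a stem-loop had a nearby hexamer or an annotation that runs on past the stem-loop, but not all members with these properties were high. Of the 5 members with a hexamer within 20 bases of the stem-loop, 4 had a mean of 10 FPKM or more (median of the 5, 13.6 FPKM), and the exception was H2AC4 at 0.176 FPKM. Among these 4, H2AC18 and H2AC19 are copies whose reads were shared arbitrarily, so they are not separate signals. The median of the 5 is the value of H2AC19. The 6 members whose first hexamer lay 21 to 200 bases on had a median of 1.66 FPKM, the 36 with one at 201 to 1000 bases 0.423 FPKM, and the 19 with none in 1000 bases 0.658 FPKM. In 59 members the annotated gene ended within 100 bases of the stem-loop, and their median was 0.516 FPKM. In the other 7 (H2BC12, H2BC18, H2BC21, H2BC4, H2BC5, H3C6 and H4C15) it ran 1728 to 29196 bases further, and the median was 7.46 FPKM, the value of H2BC21. Their means ran from 0.91 to 77.0 FPKM, and 3 of the 7 reached 10 FPKM. H2BC12 ran on for 8073 bases, H2BC5 for 12746 and H4C15 for 6674. The distance bins were drawn after the levels were known, so these medians are a description with no test. Of the 7 members with a stem-loop and a mean of 10 FPKM or more, H2AC6 was the only one with neither property: its annotation ended at the stem-loop and its first hexamer lay 746 bases on. The annotated extent of H4C15 also takes in H4C14.

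**Figure D1:**
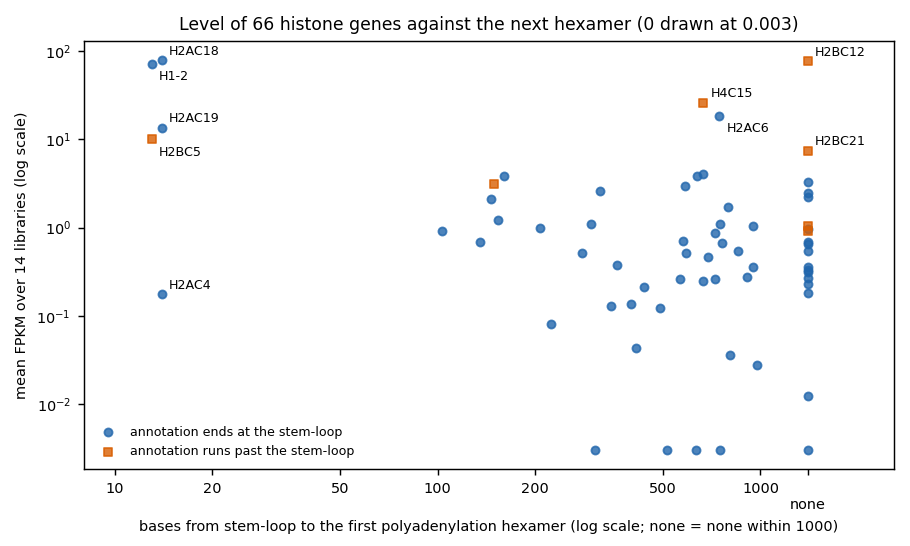
Mean FPKM over the 14 libraries (vertical axis, log scale) of the 66 members with a stem-loop, against the bases from the stem-loop to the first AATAAA or ATTAAA (horizontal axis, log scale, with genes that have none in 1000 bases at the right edge). Squares are the 7 genes whose annotation runs past the stem-loop, and of the 5 genes at the left edge 4 lie at 10 FPKM or above and H2AC4 lies at 0.176 FPKM. H2AC18 and H2AC19, among these 4, are copies that share reads.

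Before the comparisons, a few facts of the libraries bear on the values. Aligned fragments numbered 15615675 to 33018360 per library. Z18 itself was at 10.4, 11.9 and 12.8 FPKM in bulk CRISPR against 38.1, 13.9 and 48.7 FPKM in bulk control, at 14.3, 14 and 8.70 FPKM in trunc/+, at 16.2, 17.1 and 16.1 FPKM in -/+, and at 23.5 and 22 FPKM in WT (log2 fold change of FPKM + 1, limma, -1.28 in bulk CRISPR, adjusted p = 0.18). Bulk control 2 was the only control near the level of bulk CRISPR. Of the melanocyte lineage genes, TYR and MLANA were listed at 0 in every group, while SOX10 averaged 30.8 FPKM in bulk CRISPR, 16.6 in bulk control, 159 in trunc/+, 135 in -/+ and 148 in WT. The sum of 8 melanocyte lineage genes was 34.4 to 42.7 FPKM in bulk CRISPR and 17.6 to 31.5 FPKM in bulk control, against 67.9 to 477 FPKM in the clones, and that of 6 epithelial genes 414 to 539 FPKM in bulk CRISPR and 715 to 1109 FPKM in bulk control, against 176 to 698 FPKM in the clones. RNAs that normally have no polyA tail also differed between libraries: the summed FPKM of 30 such RNAs was 801, 773 and 945 in bulk CRISPR against 1624, 3329 and 1680 in bulk control, and 521 to 872 in the clones, nearly all of it from RN7SL1 and RN7SL2, the RNAs of the signal recognition particle. The part of these differences in the histone values was not tested.

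In polyA-selected RNA, histone transcripts were far higher in the bulk populations than in the clones. Histone RNA that the selection left out was not measured. The summed FPKM of the 66 members with a stem-loop was 776, 695 and 644 in bulk CRISPR and 735, 884 and 395 in bulk control, against 189, 157 and 72.5 in trunc/+, 58.6, 57.6 and 148 in -/+, and 60.2 and 107 in WT. Every bulk library lay above every clone, and the mean of bulk control (672 ± 250 FPKM, SD, n = 3) was 8.01 times that of WT (83.8 ± 33.4 FPKM, n = 2). Among the clones, the sums of the 3 genotypes overlapped, and trunc/+ 1, trunc/+ 2, -/+ 3 and WT 2 were the higher ones. In RNA of whole populations, more cells that hold a transcript and more of it per cell cannot be told apart. In each of the 5 families every bulk library lay above every clone. H3 was the smallest, with 15.2 to 22.9 FPKM in the bulk libraries and 2.90 to 5.98 FPKM in the clones.

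**Figure D2:**
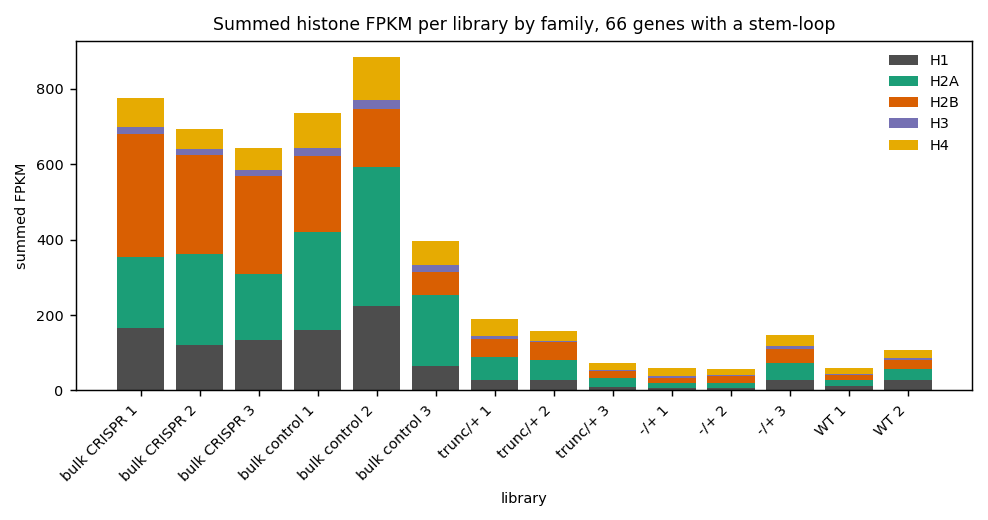
Summed FPKM of the 66 histone genes with a stem-loop in each of the 14 libraries (bars, 1 per library, starting at 0), divided by family. The 6 bulk libraries reach 395 to 884 FPKM and the 8 clones 57.6 to 189 FPKM, and the H2B share is larger in bulk CRISPR than in bulk control.

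H2AC18, an H2A gene of the chromosome 1 cluster, had 152, 191 and 134 FPKM in bulk CRISPR and 204, 156 and 123 FPKM in bulk control, against 23.1, 39.8 and 18.1 FPKM in trunc/+, 8.81, 6.82 and 29.7 FPKM in -/+ and 10.7 and 10.0 FPKM in WT. Its reads are shared arbitrarily with H2AC19, its near-identical copy in a duplicated block, which was at 157 FPKM in bulk control 2, 23.3 in trunc/+ 1 and 9.88 in WT 2 and under 0.1 FPKM in the other libraries. The pair is therefore better read as a sum, which was 152, 191 and 134 FPKM in bulk CRISPR, 204, 313 and 123 FPKM in bulk control, 46.4, 39.8 and 18.1 FPKM in trunc/+, 8.81, 6.82 and 29.7 FPKM in -/+, and 10.7 and 19.9 FPKM in WT. The same block makes H3C14 with H3C15 and H4C14 with H4C15 uncertain as single genes. The H4C14 and H4C15 sum was 53.8, 32.1 and 34.3 FPKM in bulk CRISPR and 58.0, 83.4 and 40.5 FPKM in bulk control, and 36.4, 13.5 and 10.5 FPKM in trunc/+, 13.0, 6.18 and 19.1 FPKM in -/+ and 12 and 8.51 FPKM in WT, so that trunc/+ 1 reached into the range of the bulk libraries.

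H2BC12, the highest H2B gene, had 262, 194 and 199 FPKM in bulk CRISPR and 137, 110 and 42.5 FPKM in bulk control, against 28.2, 26.6 and 11.3 FPKM in trunc/+, 8.39, 10.3 and 26.7 FPKM in -/+ and 7.27 and 14.8 FPKM in WT. H1-2, a linker histone, had 163, 120 and 132 FPKM in bulk CRISPR and 158, 224 and 62.8 FPKM in bulk control, against 25.4, 27.9 and 8.19 FPKM in trunc/+, 5.04, 6.75 and 28.3 FPKM in -/+ and 11.4 and 25.3 FPKM in WT. In both genes the lowest bulk library was bulk control 3, and it still lay above every clone. H2AC6 had 27.8, 37.8 and 31.0 FPKM in bulk CRISPR and 37.3, 39.0 and 50.9 FPKM in bulk control, against 11.5, 7.53 and 1.75 FPKM in trunc/+, 1.14, 1.71 and 6.79 FPKM in -/+ and 2.11 and 3.51 FPKM in WT. H2BC5 was less even, with 27.2, 27.2 and 22.2 FPKM in bulk CRISPR and 24.6, 15.3 and 1.82 FPKM in bulk control, 7.74, 4.63 and 1.52 FPKM in trunc/+, 0.918, 1.87 and 2.12 FPKM in -/+ and 1.5 and 1.78 FPKM in WT. Bulk control 3 lay within the clones for H2BC5.

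**Figure D3:**
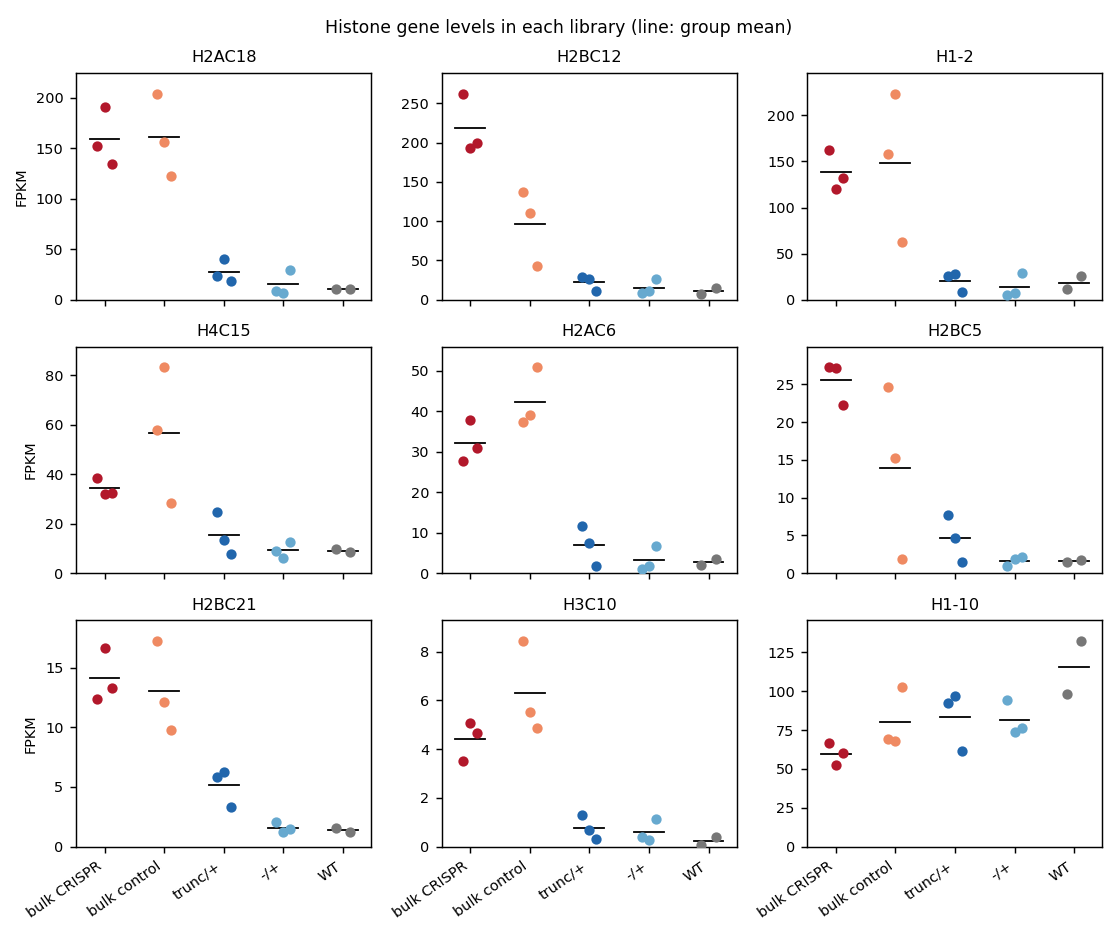
FPKM of 9 members (one panel each, vertical axes starting at 0) in every library of the 5 groups, with a line at the group mean. The 8 genes with a stem-loop are higher in the bulk groups, apart from bulk control 3 for H2BC5, while H1-10 is not. H4C15 is drawn without its copy H4C14. In their sum trunc/+ 1, at 36.4 FPKM, lies above bulk CRISPR 2 and 3, at 32.1 and 34.3 FPKM.

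Counted over all 70 members with no filter, every bulk library lay above every clone in 15 (H1-2, H1-4, H2AC6, H2AC8, H2AC13, H2AC18, H2BC8, H2BC12, H2BC21, H3C4, H3C8, H3C10, H4C5, H4C8 and H4C15), and every bulk library lay below every clone in 0. The H4C15 count does not hold for its sum with H4C14, which was 36.4 FPKM in trunc/+ 1 and 32.1 and 34.3 FPKM in bulk CRISPR 2 and 3. Over all symbols, 2.25% had every bulk library above every clone. A count that does not depend on the bulk levels came from the 19 members with at least 1 FPKM in 3 or more clones: 8 of these had every bulk library above every clone, where 4.04% of all genes with such a level did. The mean over the bulk libraries exceeded that over the clones in 54 members and fell short of it in 9. This count takes in members below 1 FPKM in every library and was not made over all genes, so it has no share to be set against. H1-10 was among the 9. H1-10 was at 66.5, 52.6 and 60.0 FPKM in bulk CRISPR and 69.5, 68.0 and 102 FPKM in bulk control, against 92.7, 96.9 and 61.2 FPKM in trunc/+, 94.4, 73.7 and 76.1 FPKM in -/+ and 98.4 and 132 FPKM in WT. The bulk libraries and the clones overlapped.

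Some members below 10 FPKM on average showed the same split at lower levels, and others, such as H4C3, H4C11, H4C12 and H2BC18, had overlapping bulk libraries and clones. H4C8 had 8.79, 10.2 and 6.59 FPKM in bulk CRISPR and 11.9, 4.14 and 5.43 FPKM in bulk control, against 1.62, 1.64 and 0.899 FPKM in trunc/+, 0.224, 0 and 1.84 FPKM in -/+ and 0 and 0.171 FPKM in WT. H4C5 had 2.85, 3.45 and 5.71 FPKM in bulk CRISPR and 9.02, 6.56 and 6.49 FPKM in bulk control, against 2.50, 1.24 and 0.397 FPKM in trunc/+, 0.564, 0.582 and 1.26 FPKM in -/+ and 0.694 and 0.339 FPKM in WT. In both of these H4 genes the lowest bulk library lay above every clone, in H4C5 by a small margin over trunc/+ 1. H3C10 had 3.50, 5.06 and 4.68 FPKM in bulk CRISPR and 8.44, 5.54 and 4.88 FPKM in bulk control, against 1.28, 0.688 and 0.320 FPKM in trunc/+, 0.389, 0.279 and 1.13 FPKM in -/+ and 0.0833 and 0.393 FPKM in WT. H3C4, which overlaps H2AC7, had 6.47, 4.01 and 4.21 FPKM in bulk CRISPR and 4.30, 4.51 and 5.61 FPKM in bulk control, against 0.402 to 0.954 FPKM in the clones. H3C4 and H3C10 both encode H3, and in each the lowest bulk library was more than 2 times the highest clone. H2BC8 had 8.40, 10.8 and 8.33 FPKM in bulk CRISPR and 4.57, 7.67 and 1.67 FPKM in bulk control, against 1.31, 1.18 and 0.251 FPKM in trunc/+, 0, 0.0483 and 0.874 FPKM in -/+ and 0.249 and 0.573 FPKM in WT. H2BC4 had 8.47, 8.05 and 8.50 FPKM in bulk CRISPR and 6.93, 4.59 and 1.19 FPKM in bulk control, against 1.02, 1.25 and 0.460 FPKM in trunc/+, 0.376, 0.332 and 1.81 FPKM in -/+ and 0.696 and 0.346 FPKM in WT. In both H2B genes bulk control 3 was the lowest bulk library, and for H2BC4 it lay within the clones. H3C3 also overlapped, with 1.64, 0.769 and 1.08 FPKM in bulk CRISPR and 2.15, 2.35 and 2.75 FPKM in bulk control, against 0.301, 0.243 and 0.252 FPKM in trunc/+, 1.18, 0.602 and 0.445 FPKM in -/+ and 0.967 and 0.719 FPKM in WT. H2AC8, H2AC13 and H3C8 stayed between 1.02 and 5.29 FPKM in the bulk libraries and below 1 FPKM in the clones.

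Bulk control and WT carry no edit of Z18, and their comparison was added after these levels were seen. In a limma fit of log2(FPKM + 1) over all 14 libraries, 39 members passed the filter of 1 FPKM in at least 2 libraries, 16 of them were higher and 1 was lower in bulk control at an adjusted p under 0.05, and of all 13439 genes tested 5.28% were called higher and 9.72% lower. The median log2 fold change was 0.89 over the tested members and -0.18 over all tested genes. A member could pass the filter through the bulk libraries alone. Among the called members, H3C4, H2AC8, H2AC13 and H3C8 did so, being below 1 FPKM in every clone. The counts and the median of the members therefore describe the split already seen and are no separate support for it. The largest difference was that of H2AC18 (log2 fold change 3.8 ± 0.48 SE, limma adjusted p = 0.0019), and the H2AC18 and H2AC19 sum gave 3.67 ± 0.56 (limma adjusted p = 0.0054). The next were H2AC6 (3.52 ± 0.58, limma adjusted p = 0.0075), H2BC12 (2.93 ± 0.56, limma adjusted p = 0.011) and H1-2 (2.87 ± 0.69, limma adjusted p = 0.023). H3C10, an H3 gene of the chromosome 6 cluster, rose by 2.54 ± 0.31 (limma adjusted p = 0.0015) and H2BC21 by 2.50 ± 0.28 (limma adjusted p = 0.00096). The other members called higher were H4C8, H4C5, H4C15, H3C4, H2BC8, H2AC8, H3C8, H2BC4, H2AC13 and H3C3, with log2 fold changes of 0.89 to 2.80. H2BC5 missed the threshold (2.00 ± 0.72, limma adjusted p = 0.075). With only 2 WT clones, the count of called members fell to 5 without WT 1 and 4 without WT 2, and H2AC18, H3C10, H2BC21 and H3C4 were called in both. The groups differ in single-cell cloning and in the time since transfection and drug selection. The part of each cannot be told apart from that of any other difference between bulk populations and clones.

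Genes that act on histone RNA or mark S phase were also compared, and their part in the histone levels was not tested. In bulk control against WT, 27 of 30 S phase genes and 8 of 9 histone mRNA decay genes had lower values. The 13 genes of histone transcription and 3′ processing were divided, with 6 higher and 7 lower. The summed FPKM of 30 S phase genes, such as those for the replicative helicase MCM2 to MCM7 and for PCNA, was 1080, 846 and 1057 in bulk CRISPR and 1188, 1227 and 1321 in bulk control, against 1320, 1294 and 1222 in trunc/+, 1503, 1613 and 1671 in -/+ and 1503 and 1688 in WT. In bulk control against WT, 7 of these 30 fell and 0 rose, by the same limma fit, among them MCM6 (-1.04 ± 0.23, limma adjusted p = 0.017), DTL (-1.29 ± 0.22, limma adjusted p = 0.0079) and POLA1 (-1.38 ± 0.32, limma adjusted p = 0.019). For this list and those below, the shares over all genes of the fit were 9.72% called lower and 5.28% called higher. Of 13 genes tested for histone transcription and 3′ processing, 1 rose and 2 fell: NPAT, the coactivator of histone transcription, fell by 1.58 ± 0.37 on the log2 scale (limma adjusted p = 0.020), CASP8AP2, another factor of histone locus bodies, fell by 1.79 ± 0.29 (limma adjusted p = 0.0071), and NELFE, a subunit of the negative elongation factor, rose by 0.74 ± 0.23 (limma adjusted p = 0.048). For NELFE every bulk library, at 64.9 to 102 FPKM, lay above every clone, at 38.5 to 54.1 FPKM. SLBP averaged 74.7 FPKM in bulk control and 63.9 FPKM in WT (log2 fold change 0.21, limma adjusted p = 0.38). Of 9 genes of histone mRNA decay, DCP2, SMG1, TUT4 and XRN1 fell and 0 rose. Of 11 replication-independent histone genes tested, 0 rose, and H2AZ2 and CENPA were among those that fell. Of 12 non-polyadenylated RNAs tested, RN7SL1 (1.42 ± 0.29, limma adjusted p = 0.013) and RN7SL2 (1.90 ± 0.30, limma adjusted p = 0.0064) rose and 0 fell. RN7SL1 averaged 273 FPKM in bulk CRISPR, 569 FPKM in bulk control and 212 FPKM in WT. Whether carry-over of such RNAs has a part in the histone levels was not tested.

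Summed over the histone genes, RNA beyond the annotated 3′ ends showed the same split. The deposited transposable element files count fragments at repeat copies, and copies lying in the 5000 bases after a histone gene, on its strand and outside genes of that strand, sample the RNA there. In CPM, fragment counts scaled to the aligned fragments of the library, these windows held 44.1, 45.5 and 33.4 CPM in bulk CRISPR and 43.6, 47.9 and 37.0 in bulk control, against 7.96, 10.9 and 5.11 in trunc/+, 3.30, 2.68 and 7.61 in -/+ and 4.37 and 5.55 in WT. Bulk control was thus 8.63 times WT here. The same windows after all other expressed genes averaged 4050 ± 1959 CPM in bulk control (SD, n = 3) against 2174 ± 300.5 in WT (n = 2), a ratio of 1.86, with the bulk control and clone ranges overlapping. The largest single contribution came from the window after H2BC8, with 18.3, 17.8 and 10.6 CPM in bulk CRISPR and 13.0, 15.3 and 4.61 in bulk control, against 1.67, 1.08 and 0.960 in trunc/+, 0.443, 0.427 and 0.544 in -/+ and 0.578 and 1.27 in WT. Windows after H4C12 and H4C8 followed, although H4C12 itself had overlapping bulk libraries and clones. The window after H2AC18 held 0.0375 to 0.605 CPM in the bulk libraries and 0 to 0.168 CPM in the clones, which overlapped. Of the 70 windows, 52 held any fragment, and in 7 every bulk library lay above every clone. This last count was not made for other genes. Windows of neighbouring genes can overlap, a repeat copy can have a promoter of its own, and the counts are the authors' estimates for reads that map to several copies. Whether these fragments belong to transcripts of the histone genes was not tested.

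**Figure D4:**
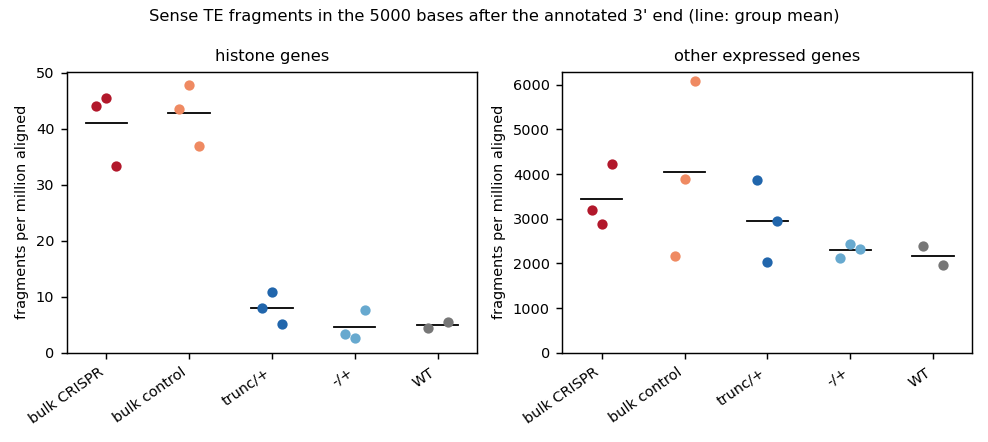
Sense-strand transposable element fragments in CPM (scaled to aligned fragments) in the 5000 bases after the annotated 3′ end of the histone genes (left panel) and of all other expressed genes (right panel), 1 point per library and a line at the group mean. On the left the 6 bulk libraries lie at 33.4 to 47.9 and the 8 clones at 2.68 to 10.9, and on the right bulk control, at 2172 to 6081, overlaps WT, at 1962 to 2387.

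Editing of Z18 in bulk was tested as bulk CRISPR against bulk control, in a limma fit of the 6 bulk libraries. No member was called among the 30 tested (0 at an adjusted p under 0.05), where 0.347% of all 12114 genes were called. At an unadjusted p under 0.05, 3 members were higher and 2 lower, and 20.9% of all genes passed that level. The median log2 fold change was -0.01 over the tested members and 0.18 over all genes. H2B genes took the 5 highest values of the 30: H2BC5 (1.33 ± 0.71), H2BC12 (1.32 ± 0.41), H2BC4 (1.02 ± 0.44), H2BC8 (1.00 ± 0.41) and H2BC15 (0.72 ± 0.33), with limma adjusted p of 0.17 to 0.31. The lowest were H4C5 (-0.77 ± 0.28), H3C3 (-0.68 ± 0.22) and H4C15 (-0.58 ± 0.36), with limma adjusted p of 0.18 to 0.36. Every bulk CRISPR library lay above every bulk control library in H2BC12, H2BC4 and H2BC8, where 21.8% of all genes did, and below it in H1-10, H3C3 and H4C5, where 10.4% did. Neither count of members, 3 of 30, was above the share over all genes.

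As family sums, H2B was at 326, 265 and 258 FPKM in bulk CRISPR against 201, 155 and 59.7 FPKM in bulk control, whereas H2A was at 190, 241 and 176 FPKM in bulk CRISPR against 259, 367 and 189 FPKM in bulk control. The ratio of the H2B to the H2A sum within a library was 1.71, 1.1 and 1.47 in bulk CRISPR and 0.778, 0.422 and 0.315 in bulk control, and 0.769 to 0.877 in trunc/+, 0.912 to 1.58 in -/+ and 0.863 to 0.894 in WT. The ratios of the bulk groups did not overlap, and how often other ratios would separate these libraries was not counted. The pair of H2AC18 and H2AC19 made up most of the H2A sum. Its means were 159 of 202 FPKM in bulk CRISPR and 213 of 272 FPKM in bulk control. H4 was at 76.7, 54.0 and 58.6 FPKM in bulk CRISPR against 91.4, 114 and 62.4 FPKM in bulk control, and these overlapped. H2BC12 made up most of the H2B sum. Its difference rested in part on bulk control 3, at 42.5 FPKM, and without that library its log2 fold change was 0.81 (limma adjusted p = 0.17). Bulk control 3 was the shallowest library.

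Genes that process histone RNA were not called in this comparison either. SLBP was at 52.6, 42.4 and 52.3 FPKM in bulk CRISPR against 64.9, 83.3 and 75.7 FPKM in bulk control, ranges that did not overlap, with a log2 fold change of -0.59 ± 0.20 (limma adjusted p = 0.19). NPAT was at 2.54, 3.23 and 3.95 FPKM in bulk CRISPR against 3.08, 0.394 and 0.819 FPKM in bulk control (0.95 ± 0.39, limma adjusted p = 0.22). Of the 13 genes of histone transcription and processing, the 9 of decay, the 6 of the cap-binding complex and the 30 of S phase, 0 passed the test. KRT8 and KRT7, keratins that mark epithelial cells, were the only genes of the cell type lists called, both lower in bulk CRISPR (-1.89 and -1.53, limma adjusted p = 0.029 and 0.048).

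**Figure D5:**
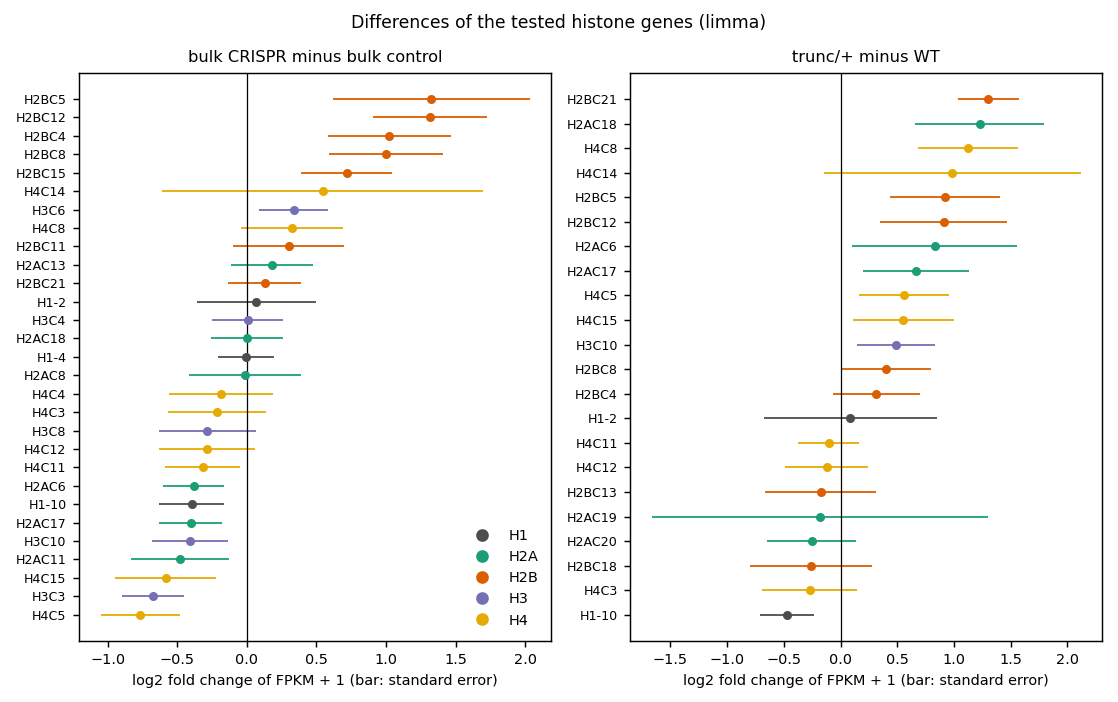
Log2 fold change of FPKM + 1 (points) with its standard error (bars) from limma for tested members, coloured by family, in bulk CRISPR against bulk control (left) and trunc/+ against WT (right). On the left the 5 highest points are H2B genes and on the right H2BC21 is the highest, and 0 of the points passed the test in either comparison.

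Among the clones, trunc/+ against WT asks what 1 truncated allele does. Of 23 members tested 0 were called, where 0.00775% of all 12904 genes were. At an unadjusted p under 0.05, 2 members were higher and 0 lower, and 7.59% of all genes passed. The median log2 fold change was 0.40 over the tested members and -0.02 over all genes, and the members' median was 0.15 on the TPM scale. H2BC21, an H2B gene of the chromosome 1 cluster, had 5.81, 6.25 and 3.34 FPKM in trunc/+, against 2.05, 1.23 and 1.51 FPKM in -/+ and 1.60 and 1.27 FPKM in WT. In this gene the 3 trunc/+ clones were above the other 5, and the share of all genes with that separation was not counted. The log2 fold change of H2BC21 was 1.3 ± 0.27 against WT (limma unadjusted p = 0.0015, adjusted p = 0.54) and 1.22 ± 0.24 against -/+ (limma unadjusted p = 0.0011, adjusted p = 0.79). H2AC18 followed with 1.23 ± 0.57 (limma adjusted p = 0.66), a value of 1.09 ± 0.63 for the sum with H2AC19, and then H4C8 with 1.12 ± 0.44 (limma adjusted p = 0.65). Among the lowest were H1-10 (-0.47 ± 0.24) and H4C3 (-0.27 ± 0.42). Every trunc/+ clone lay above both WT clones in H2AC17, H2AC18, H2BC21 and H4C8, 4 of the 23 members, where 10.6% of all genes did, and below both in H1-10, where 15.4% did. For H2AC18 the separation was lost in the sum with H2AC19, at 18.1 FPKM in trunc/+ 3 against 19.9 FPKM in WT 2. Of 30 S phase genes, 27 were lower and 3 higher in trunc/+ than in WT, with a median of -0.35 and 0 called.

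The comparison of -/+ with WT asks what the loss of 1 allele does. Of the 23 members 0 were called in -/+ against WT, where 0.00775% of all genes were, and 0 passed an unadjusted p under 0.05, where 1.82% of all genes did. The median log2 fold change was 0.01 over the members. Every -/+ clone lay above both WT clones in 0 members, where 6.16% of genes did, and below both in H1-10, where 8.44% did. The highest values were H4C14 (0.87 ± 1.13), H4C8 (0.49 ± 0.44) and H2AC17 (0.40 ± 0.47), and the lowest H2AC19 (-1.72 ± 1.48), H1-2 (-0.70 ± 0.76) and H1-10 (-0.49 ± 0.24). H4C14 and H2AC19 are copies whose reads were split, and their pair sums gave 0.19 ± 0.57 and -0.23 ± 0.63.

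Between trunc/+ and -/+, 0 of the 23 members were called, as were 0.0% of all genes, and at an unadjusted p under 0.05 1 member, H2BC21, passed, against 6.28% of all genes. The median log2 fold change was 0.27 over the members. Besides H2AC19 (1.54 ± 1.33) and H2BC21, the highest was H2AC18 (1.00 ± 0.51), and the pair sum of H2AC18 and H2AC19 gave 1.32 ± 0.57 (limma adjusted p = 0.79). The lowest were H2BC13 (-0.53 ± 0.44), H4C3 (-0.51 ± 0.37) and H4C11 (-0.11 ± 0.24). Every trunc/+ clone lay above every -/+ clone in H2BC21, where 4.79% of genes did, and below in 0 members, where 6.45% did. The comparisons of trunc/+ with WT and with -/+ share the trunc/+ clones, and those of trunc/+ and -/+ with WT share the WT clones, so they are not independent of each other.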

How the data were processed

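The members, gene lists and tests were chosen with earlier results of these data known. Per the study's methods, the authors mapped paired-end reads of 14 polyA-selected, stranded libraries to hg38 with SQuIRE, and the submitters' processing notes name cutadapt 4.6. The deposited FPKM, TPM and signal (coverage) values were made by the authors with SQuIRE on RefSeq genes, in tables of the StringTie format. The deposited transposable element files give the authors' estimated counts (expected counts) of fragments per repeat copy, set by expectation maximization, and the count of aligned fragments. FPKM were summed per symbol and tested as log2(FPKM + 1), which understates changes of low genes, with limma 3.58.1 (R 4.3.3, trend). Genes needed 1 FPKM in 3 libraries in the bulk fit, in 2 clones in the clone fit and in 2 libraries in the added fit over all libraries, and p-values were adjusted by Benjamini-Hochberg over all genes at 0.05. Members named with values were those called, the 6 highest by mean level, the highest of each family, the 3 highest and 3 lowest fold changes of each comparison, and H1-10, with others chosen after their values were seen. Bulk control against WT and the hexamer bins were also added after the levels were seen. The limma code was tested on simulated data. Columns of per-sample values left unused for lack of a sample numbered 0. Sequences and the stem-loop search used hg38 and the GENCODE annotation. The search matched the letters of the histone consensus, 2 arms of 6 bases around a loop of 4 bases, and did not check that the arms pair. The alternatives were a pseudocount of 0.1, lower filters, TPM, quantile scaling, library weights, a replicate block, summed copies and leaving out each library. Results of 1 member are not reported here.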

Additional observations from a re-analysis of the deposited data

How the results depend on the processing

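All genes called in bulk CRISPR against bulk control numbered 42. They were 20 with a pseudocount of 0.1, 16 with no filter, 26 with TPM, 73 with quantile scaling, 19 with library weights, and 4 to 1327 without single libraries, the highest without bulk control 1. The median of all genes was 0.18, and 0.03 with quantile scaling, where 25 of the 73 calls were higher and 48 lower, against 23 higher and 19 lower of the 42. The replicate numbers did not pair the libraries: the correlations of their deviations were -0.17, -0.22 and 0.18 in the bulk groups. With the replicate block, 220 genes and 1 member (H2BC12, limma adjusted p = 0.046) were called there. The median over members was -0.14 with the 0.1 FPKM filter, -0.25 with quantile scaling, and -0.20 to 0.10 without single libraries. H2AC18 and H1-2, both near 0, changed sign under some settings (H2AC18 0.10 with TPM, 0.095 with quantile scaling and -0.18 to 0.18 without single libraries, H1-2 -0.45 to 0.45 without single libraries). In trunc/+ against WT the median of 0.40 was 0.66 with a pseudocount of 0.1, 0.10 with the 0.1 FPKM filter, 0.090 with no filter, 0.15 with TPM, and 0.13 to 0.68 without single clones. The single called gene became 0 with a pseudocount of 0.1, the replicate block or 2 groups only, 3 with no filter and 2 with library weights, as in -/+ against WT, and 0 to 1 without single clones. H4C3 lay between -0.79 and 0.24 without single clones, the highest without WT 2. In trunc/+ against -/+ the median of 0.27 was 0.49, 0.080, 0.074 and 0.11 under the same settings, 0.54 with library weights, and 0.060 to 0.67 without single clones, and H4C11 was 0.042 with library weights. In bulk control against WT the members called were 10 with library weights or 2 groups only, and 4 to 18 without single libraries. All genes called there (709 higher, 1306 lower) were 398 higher and 1520 lower with TPM, 847 higher and 909 lower with quantile scaling, and in all 1171 with the replicate block, 256 with library weights, 221 with 2 groups only, and 51 to 3690 without single libraries. The median of 0.89 was 2.25 with a pseudocount of 0.1, 0.50 with the 0.1 FPKM filter, 0.47 with no filter, 1.1 with quantile scaling, 1.12 with 2 groups only, and 0.89 to 1.1 without single libraries. H2BC18 lay between -1.16 and 0.0060 without single libraries, the highest without WT 2. Causes of these changes were not tested. FPKM do not show the fragments behind a gene, so counting error could not be separated from the spread between libraries.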
